A study of Mus musculus with 4 samples.

Results

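The matrix metalloproteinases (MMPs), the ADAMTS metalloproteinases and their tissue inhibitors (TIMPs) were described in cultured mouse calvarial osteoblasts carrying a conditional Runx3 deletion and in wild-type osteoblasts. Members were chosen by gene symbol alone: 22 Mmp, 18 Adamts and 4 Timp genes, 44 of the 22180 genes that had an array row (a probe set) under 1 gene symbol. Of these, 40 had 1 such row, and for the other 4 the row with the highest mean over the 4 arrays was used. Mmp15 and Adamts2 were not analysed here. The groups were primary osteoblasts of the genotype Runx3f/f/Col1a1-cre, in which a floxed Runx3 gene is cut by a Cre recombinase under the promoter of the type I collagen gene Col1a1, and wild-type (WT) primary osteoblasts. Each group had 2 arrays, labelled biological replicates 1 and 2. All cultures came from neonatal calvaria, the bones of the skull roof, and had spent 21 days in medium with ascorbate and glycerol phosphate. Mouse Gene 2.0 ST arrays measured total RNA, and the design text asks which genes depend on Runx3, a Runt-family transcription factor, along osteoblast differentiation. The labels give neither the number of mice per culture nor the exons removed, and a Cre of this kind acts only in cells that make type I collagen, so other cells of a culture would keep the gene.

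Most MMPs are secreted as inactive zymogens and cut collagens, proteoglycans and other matrix proteins once their propeptide is removed. The ADAMTS enzymes are related secreted proteases with thrombospondin repeats that cut proteoglycans, trim procollagens or act on microfibrils, and TIMPs bind the active site of these proteases and block it. In bone, osteoblasts and osteocytes use MMPs to remodel the collagen they lay down, osteoclasts use them beside acid proteases, and hypertrophic cartilage needs them to be replaced by bone.

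Values are the deposited ones, taken as log2, so a difference of 1 is 2-fold. A gene was tested when at least 2 arrays exceeded a detection floor of 4.71. The floor was taken from 1405 olfactory and vomeronasal receptor rows, genes known for sensory neurons, as the 90th percentile of their means. It left 42 of the 44 members and 17841 genes in all. The array medians were 5.50 and 6.08 for the mutant-labelled cultures of replicates 1 and 2, against 5.45 and 6.05 for the WT cultures. This offset of the array medians exceeds the difference between groups of 38 of the 42 tested members. A gene's own gap between replicates can be far smaller, as for Mmp16, or larger, as for Mmp27. Differences within each replicate are therefore given beside the pooled ones. The same floor computed within each replicate number was 4.48 and 5.05, and 38 of the 42 tested members lay above it on all 4 arrays. Many rows held exactly equal values on both arrays of a replicate number, for which no source used here gives a reason, so an exact 0 does not show that a gene was unchanged. Among tested members 9 were exactly equal in replicate 1 (35.8% of all tested genes were) and 21 in replicate 2 (50.2%). Runx3 read 7.94 and 8.06 on the mutant-labelled arrays against 7.45 and 7.87 on the WT arrays (difference 0.34, SE 0.20, limma adjusted p = 1). It was thus no lower where the label says it was deleted, and every direction below follows the labels. Of 8 osteoblast markers tested, 3 (Ibsp, Phex and Dmp1) were at least 1.5-fold lower within both replicates and none was that much higher. Of all tested genes 1.15% were that much lower and 1.47% that much higher. By any amount, 4 of the 8 were lower and 1 was higher within both replicates. A tissue tag of all 4 samples reads myoblast. Of 8 myoblast markers 7 passed the floor, but so did 17841 of all 22180 genes, so this count does not bear on the tag. Myod1, the defining myoblast factor, read 5.45 and 6.42 in both groups, and Des, a muscle filament gene, read 8.11 and 8.24 on the mutant-labelled arrays against 7.59 and 7.99 on the WT arrays. Of the 7 tested, Des was the 1 that was higher within both replicates. Acta1 was the 1 that was lower, with -0.24 and -0.18 within the replicates.

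Across the members, 4 stood apart in both replicates. Mmp3 and Adamts15 were lower and Adamts4 and Adamts6 were higher on the mutant-labelled arrays, by at least 1.5-fold in the same direction within both replicates. That is 2 of 42 tested members higher, where 1.47% of all tested genes met this rule, and 2 of 42 lower, where 1.15% did. Together they made up 9.52% of the tested members, against 2.63% of all tested genes in either direction. The fit across all genes called none of them: in limma with Benjamini-Hochberg adjustment over 17841 genes, 0 members and 0% of all genes passed an adjusted p of 0.05, and the smallest adjusted p among members was 0.312. At an unadjusted p under 0.05 there were 4 members, the same genes, where 3.96% of all genes passed. With a fitted fold of at least 1.5 as well, 2 members were higher (1.32% of all tested genes) and 2 lower (1.26%). Leaving out 1 array leaves a group of 1, which is assumed to vary like the other group, and moves the median of all tested genes by up to 0.16 in either direction. Without mutant-labelled replicate 2, Adamts4 stood at 0.74 and Adamts6 at 0.83, and without WT replicate 1 at 0.68 and 0.71, still over 1.5-fold but with limma unadjusted p from 0.0514 to 0.102. Mmp3 had a limma unadjusted p of at most 0.00145 and Adamts15 of at most 0.0392 over the 4 such fits. With the replicate number as a block, limma called 0 members and 0.0% of all genes after adjustment, and 9 members at an unadjusted p under 0.05 (13.0%). A gene exactly equal in 1 replicate could not be called by that fit, because its p hardly depends on the size of its difference. Mmp9 and Adamts7, equal in replicate 2, differed by -0.09 and -0.29 in replicate 1, and both had a limma unadjusted p of 0.403 with that block. Quantile normalization of all rows once more, with that block, moved 3 members past an adjusted p of 0.05, where 1.88% of all tested genes passed. They were Mmp3 (0.0399), Adamts4 (0.0399) and Adamts15 (0.0425), and Adamts6 stood at 0.0529. The same normalization without the block called 0 members, and with the block but over single-symbol genes only it called 0 members and 0.0% of all tested genes. An intensity trend in the variance called 0 members and 0.275% of all tested genes. With 2 arrays against 2, an exact permutation test of any single gene cannot go below a two-sided p of 0.333. Over all sizes, 8 members were higher within both replicates (16.8% of all tested genes), 10 were lower (19.5%), 2 had opposite signs (3.39%) and 8 were exactly equal in both (25.7%). The 38 tested members outside those 4 differed by at most 0.39 in either direction, and the median difference of all 42 was -0.0017, beside 0 for all tested genes. Arrays of the groups did not overlap for 7 members that were higher (7.66% of all tested genes) and for 7 that were lower (9.25%).

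**Figure D1:**
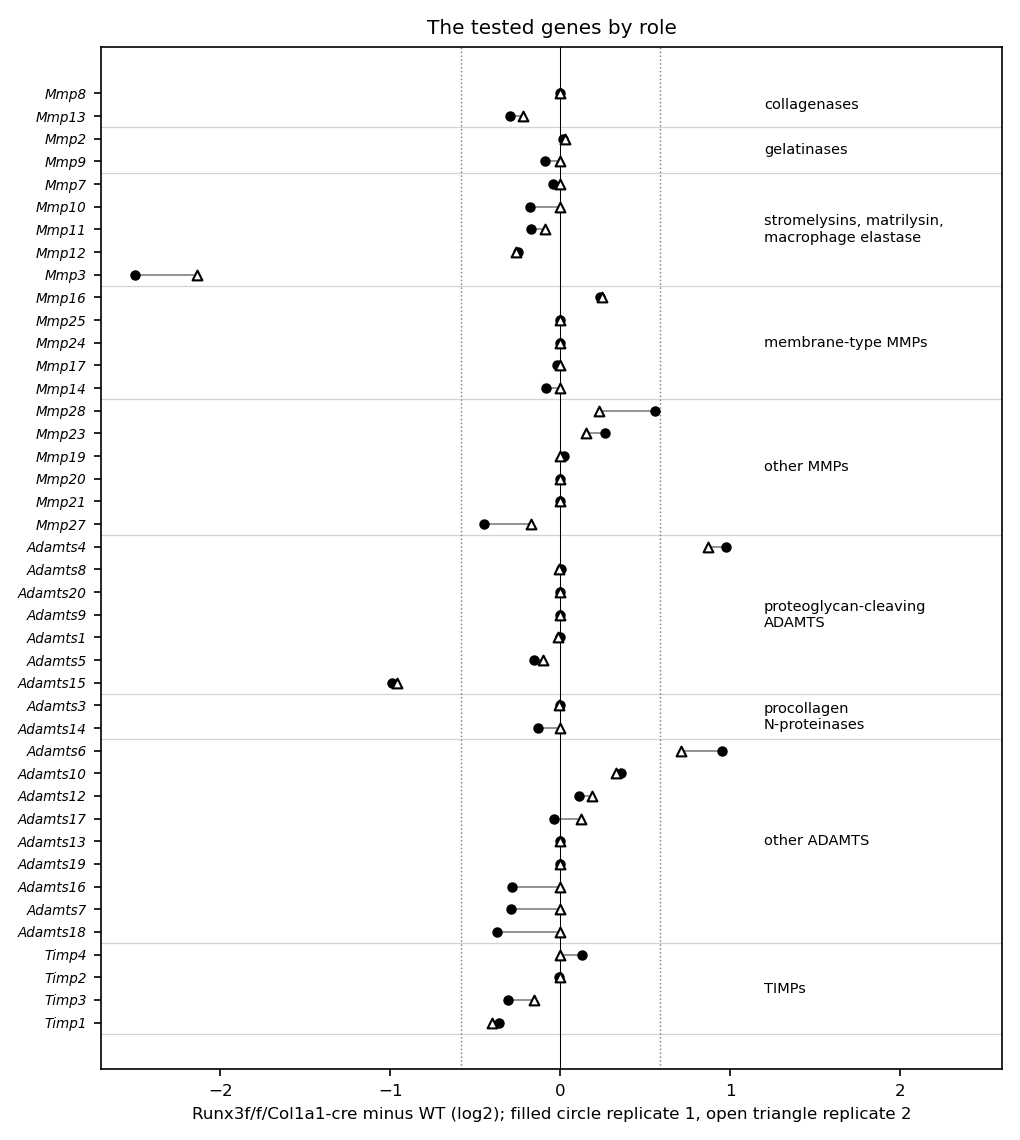
Log2 difference, Runx3f/f/Col1a1-cre minus WT, of each of the 42 tested genes within replicate 1 (filled circles) and replicate 2 (open triangles), grouped by role. Dotted lines mark 1.5-fold in either direction. Mmp3 and Adamts15 lie beyond the left line and Adamts4 and Adamts6 beyond the right line in both replicates.

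Mmp3 encodes stromelysin 1, which cuts a wide range of matrix proteins and activates the zymogens of other MMPs. It read 4.95 and 5.41 on the mutant-labelled arrays and 7.45 and 7.55 on the WT arrays of replicates 1 and 2. Both mutant-labelled values lay below both WT values, and the groups did not overlap. The means were 5.18 ± 0.32 in mutant-labelled cultures and 7.50 ± 0.07 in WT cultures (SD, n = 2 each), 4.99-fold lower. The limma difference was -2.32 (SE 0.21), its 95% interval ran from -2.93 to -1.71, and its adjusted p was 0.312. Replicate 1 gave -2.50 and replicate 2 gave -2.14. On the mutant-labelled arrays Mmp3 stood only 0.48 and 0.35 above the floor of its own replicate, and 94.8% and 93.3% of receptor rows read lower. Mmp3 signal there was therefore close to that of the receptor rows, whereas it stood 2.98 and 2.49 above the floor on the WT arrays. In RNA of a whole culture, fewer cells of a type and less RNA per cell cannot be told apart. On the same arrays 14 of 18 macrophage markers were at least 1.5-fold lower within both replicates (1.15% of all tested genes were), and their part in the Mmp3 difference was not tested.

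Mmp3 is the fourth of 10 MMP genes that neighbour each other on mouse chromosome 9, with no other protein-coding gene between them in RefSeq: Mmp13, Mmp12, Mmp1b, Mmp3, Mmp1a, Mmp10, Mmp8, Mmp27, Mmp20 and Mmp7. Of the 10, 8 were tested, and 1, Mmp3, was at least 1.5-fold apart in both replicates, where 2.63% of all tested genes were. Its neighbours Mmp1b and Mmp1a lay below the floor on all 4 arrays and were not tested. Mmp13, at one end of the run, differed by -0.29 and -0.22 within the replicates and Mmp12, beside it, by -0.25 and -0.26. Mmp27 differed by -0.45 and -0.17, but its groups overlapped and a mutant-labelled value of 4.22 lay below the floor. Mmp8 and Mmp20 held exactly equal values in both replicates, and Mmp10 and Mmp7 in replicate 2. No gene of the run was higher within either replicate.

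**Figure D2:**
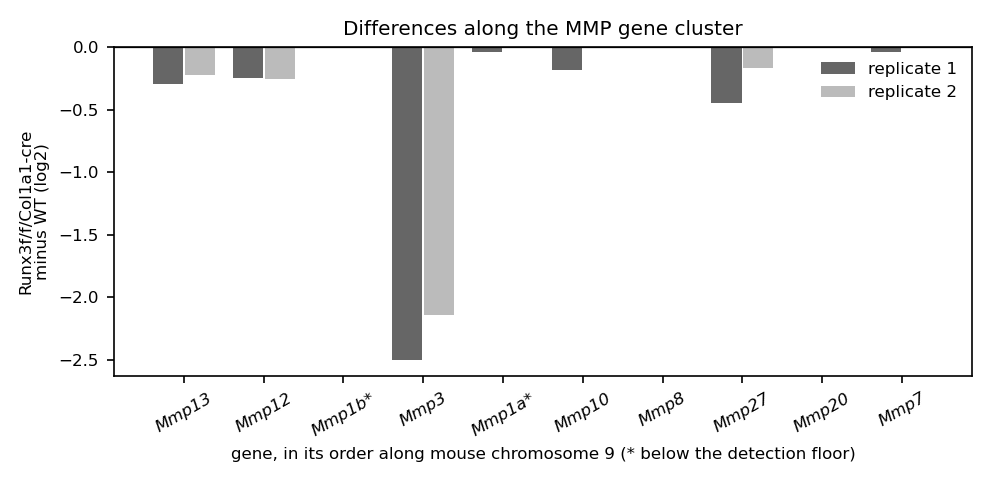
Log2 difference, Runx3f/f/Col1a1-cre minus WT, of the 10 neighbouring MMP genes in their order along mouse chromosome 9, with dark bars for replicate 1 and light bars for replicate 2. The Mmp3 bars reach -2.50 and -2.14, and the largest of the other bars is -0.45, for Mmp27 in replicate 1. Exactly equal values leave no bar.

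RefSeq promoters (GRCm38.p6) were at hand for 30 of the 44 members, among them all 10 genes of this run. The 14 members without one, among them Adamts4, Adamts6 and Adamts15, were not searched. The 250 bases before each start were searched on both strands for TGTGGT, the core recognised by Runx factors, and for its variant TGCGGT. They were also searched for TGAGTCA, the site of AP-1 (Fos and Jun) factors. These 3 strings do not overlap each other in the promoters printed here. The Mmp3 and Mmp13 promoters are shown because Mmp3 has the largest difference among the members and Mmp13 is a textbook Runx2 target, with matches to the strings in capitals.
Mmp3, chr9:7445572-7445821, + strand: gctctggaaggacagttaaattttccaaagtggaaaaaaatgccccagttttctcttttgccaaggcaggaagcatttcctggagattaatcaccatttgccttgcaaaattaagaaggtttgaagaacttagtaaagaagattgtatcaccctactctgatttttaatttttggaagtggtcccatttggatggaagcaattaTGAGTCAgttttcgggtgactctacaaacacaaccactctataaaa
Mmp13, chr9:7272264-7272513, + strand: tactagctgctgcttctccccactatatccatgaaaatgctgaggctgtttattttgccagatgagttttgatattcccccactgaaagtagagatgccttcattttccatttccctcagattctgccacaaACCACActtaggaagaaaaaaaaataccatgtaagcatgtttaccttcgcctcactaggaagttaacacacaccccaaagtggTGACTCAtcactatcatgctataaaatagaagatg

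The Mmp13 window held the Runx core on its reverse strand, 118 bases before the start, and an AP-1 string on the reverse strand 35 bases before it. The Mmp3 window held an AP-1 string 46 bases before its start and neither Runx string, which says only that these letters are not in these 250 bases. The Runx core stood in the windows of 6 of the 30 members with a promoter, or 20.0%: Mmp1b, Mmp7, Mmp13, Mmp14, Mmp23 and Mmp27. Of all 32851 promoters 14.0% held it. Members are counted here as genes, at any start listed, whereas each share of all is over promoters. A gene with 2 starts, such as Mmp7 or Mmp23, thus has more room for a match. The C variant stood in 3 members, Mmp8, Mmp11 and Mmp23, where 5.1% of all promoters held it. AP-1 strings stood in 7 of the 10 genes of the chromosome 9 run and in 0 of the 20 other members with a promoter, where 4.46% of all promoters held it. Their surroundings are printed in the order of the genes, on each gene's own strand, with the string in capitals.
Mmp13, chr9:7272469-7272495, + strand: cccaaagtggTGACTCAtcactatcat
Mmp12, chr9:7347320-7347346, + strand: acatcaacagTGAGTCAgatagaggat
Mmp1b, chr9:7388103-7388129, minus strand: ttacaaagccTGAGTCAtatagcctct
Mmp3, chr9:7445766-7445792, + strand: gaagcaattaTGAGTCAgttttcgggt
Mmp1a, chr9:7464058-7464084, + strand: ttgtcaaccaTGAGTCAcatagcctct
Mmp10, chr9:7502269-7502295, + strand: agcacccatgTGAGTCAtgcttagtga
Mmp7, chr9:7692017-7692043, + strand: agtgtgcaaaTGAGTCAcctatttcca

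The Mmp12 window belongs to the start at which the string was found, 1 of 2 starts listed for that gene, and likewise for Mmp7. The string is thus shared by genes that read near or below the floor on every array, such as Mmp1a and Mmp7, and by Mmp3 and Mmp13, which were detected in WT cultures. A match is a string of letters and was not measured as a bound site.

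The remaining stromelysins and their relatives differed little. Mmp12, the elastase that macrophages make, read 5.54 and 5.57 on the mutant-labelled arrays and 5.79 and 5.83 on the WT arrays. The groups did not overlap, and the difference was -0.25 (SE 0.12, limma adjusted p = 1). Mmp11, stromelysin 3, read 7.59 and 7.49 on the mutant-labelled arrays and 7.77 and 7.58 on the WT arrays, which overlap. Mmp10, stromelysin 2, read 4.87 and 5.87 on the mutant-labelled arrays against 5.05 and 5.87 on the WT arrays, and Mmp7, matrilysin, was close to the floor as well.

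Among the collagenases, which make the first cut in fibrillar collagen, Mmp13 was clearly detected. This enzyme of osteoblasts and hypertrophic chondrocytes read 12.24 and 12.45 on the mutant-labelled arrays against 12.53 and 12.68 on the WT arrays. Its groups did not overlap, and the difference was -0.26 (SE 0.15, 95% interval -0.69 to 0.18, limma adjusted p = 1). Mmp8, the collagenase of neutrophils, read 4.73 and 5.70 in both groups, above the floor of each replicate.

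The gelatinases, which degrade denatured collagen, showed no separation. Mmp2, gelatinase A, read 13.15 and 13.38 on the mutant-labelled arrays and 13.14 and 13.35 on the WT arrays, with a difference of 0.02 (SE 0.17) and a 95% interval from -0.46 to 0.51. Mmp9, gelatinase B, which osteoclasts make, read 5.70 and 6.10 on the mutant-labelled arrays and 5.80 and 6.10 on the WT arrays. Its values in replicate 2 were exactly equal. The arrays of each replicate lay closer together than the replicates did.

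Of the membrane-type MMPs, Mmp16 alone had groups that did not overlap. It encodes MT3-MMP, a collagenase of the cell surface, and read 11.13 and 11.18 on the mutant-labelled arrays against 10.90 and 10.93 on the WT arrays. The difference was 0.24 (SE 0.12, limma adjusted p = 1) and nearly the same within the replicates, at 0.23 and 0.24. Mmp14 encodes MT1-MMP, the main surface collagenase of bone and the activator of pro-MMP2, and read 12.22 and 12.04 on the mutant-labelled arrays and 12.30 and 12.04 on the WT arrays. The difference of -0.04 had a 95% interval from -0.52 to 0.43, and the values of replicate 2 were exactly equal. Mmp17 differed by -0.0090, and Mmp24 and Mmp25 were exactly equal in both replicates on the rows used. A row that Mmp24 shares with the symbol BC029722 differed by -0.24 and -0.10 within the replicates and cannot be assigned to either gene.

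In the remaining MMPs, Mmp28 came closest to the 1.5-fold rule. This gene encodes epilysin and read 7.84 and 7.90 on the mutant-labelled arrays against 7.29 and 7.67 on the WT arrays, with 0.56 within replicate 1 and 0.23 within replicate 2. Mmp23, a short membrane-bound MMP, read 12.08 and 11.99 on the mutant-labelled arrays against 11.81 and 11.84 on the WT arrays. Both genes were higher without overlap, and both had a limma adjusted p of 1. Mmp19 differed by 0.01, and Mmp21 and the enamel protease gene Mmp20 held exactly equal values and were above the replicate floor only in replicate 2.

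The ADAMTS enzymes that cut proteoglycans included genes apart in opposite directions. Adamts4 encodes aggrecanase 1, which cuts aggrecan, the large proteoglycan of cartilage. It read 8.47 and 8.85 on the mutant-labelled arrays and 7.50 and 7.98 on the WT arrays. Both mutant-labelled arrays were higher without overlap, at 1.90-fold (difference 0.92, SE 0.26, limma adjusted p = 1), with 0.98 and 0.87 within the replicates.

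Adamts15, another proteoglycanase gene, went the other way. It read 6.62 and 6.82 on the mutant-labelled arrays and 7.61 and 7.78 on the WT arrays. The groups did not overlap, and the level was 1.96-fold lower (difference -0.97, SE 0.15, limma adjusted p = 0.527), with -0.99 and -0.96 within the replicates. Its neighbour on chromosome 9 is Adamts8, a gene of the same subfamily, which read 4.87 and 5.76 on the mutant-labelled arrays against 4.86 and 5.76 on the WT arrays, near the floor.

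Adamts5 encodes aggrecanase 2, the other main aggrecanase. It read 11.38 and 11.37 on the mutant-labelled arrays and 11.53 and 11.48 on the WT arrays, without overlap and with a difference of -0.13 (SE 0.12, 95% interval -0.47 to 0.21). Adamts1, its neighbour on chromosome 16, read 11.72 and 11.78 on the mutant-labelled arrays against 11.72 and 11.79 on the WT arrays. Adamts9 differed by -0.0020 in replicate 1 and was exactly equal in replicate 2, and Adamts20 was exactly equal in both. Thus 1 of the 7 tested proteoglycanase genes was at least 1.5-fold higher in both replicates (1.47% of all tested genes) and 1 was that much lower (1.15%). The other 5 differed by at most 0.13 in the pooled values. Whether the differences of Adamts4 and Adamts5 are unequal was not tested. The 95% interval for Adamts4 ran from 0.18 to 1.67.

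Procollagen N-proteinases, which trim the amino-terminal propeptide of fibrillar procollagens, did not separate. Adamts14 read 8.81 and 8.79 on the mutant-labelled arrays and 8.94 and 8.79 on the WT arrays, exactly equal in replicate 2. Adamts3 read 5.76 and 6.38 on the mutant-labelled arrays against 5.76 and 6.39 on the WT arrays, exactly equal in replicate 1.

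Of the other ADAMTS genes, Adamts6 was higher. It encodes an enzyme related to ADAMTS10, both known for acting on fibrillin microfibrils. It read 8.46 and 8.47 on the mutant-labelled arrays and 7.51 and 7.76 on the WT arrays. These groups were well apart, at 1.78-fold higher (difference 0.83, SE 0.15, limma adjusted p = 0.611), with 0.95 and 0.71 within the replicates. Adamts10 read 10.07 and 10.19 on the mutant-labelled arrays and 9.72 and 9.86 on the WT arrays. It was also higher without overlap, by 0.36 and 0.33 within the replicates, below 1.5-fold (limma adjusted p = 1). Adamts12, which cuts cartilage oligomeric matrix protein, read 10.87 and 10.78 on the mutant-labelled arrays and 10.76 and 10.59 on the WT arrays, without overlap and with a difference of 0.15 (SE 0.14).

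Adamts7, which shares that substrate, read 7.63 and 8.04 on the mutant-labelled arrays against 7.92 and 8.04 on the WT arrays. Adamts17, also linked to microfibrils, differed by 0.04 with opposite signs within the replicates. Adamts16 differed by -0.28 and Adamts18 by -0.37 in replicate 1, and both were exactly equal in replicate 2. Adamts13, which cuts von Willebrand factor, and Adamts19 held exactly equal values in both replicates, and Adamts19 lay below the replicate floor on every array. Of these 9 genes, 1 was thus at least 1.5-fold higher in both replicates (1.47% of all tested genes) and none was that much lower (1.15%).

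**Figure D3:**
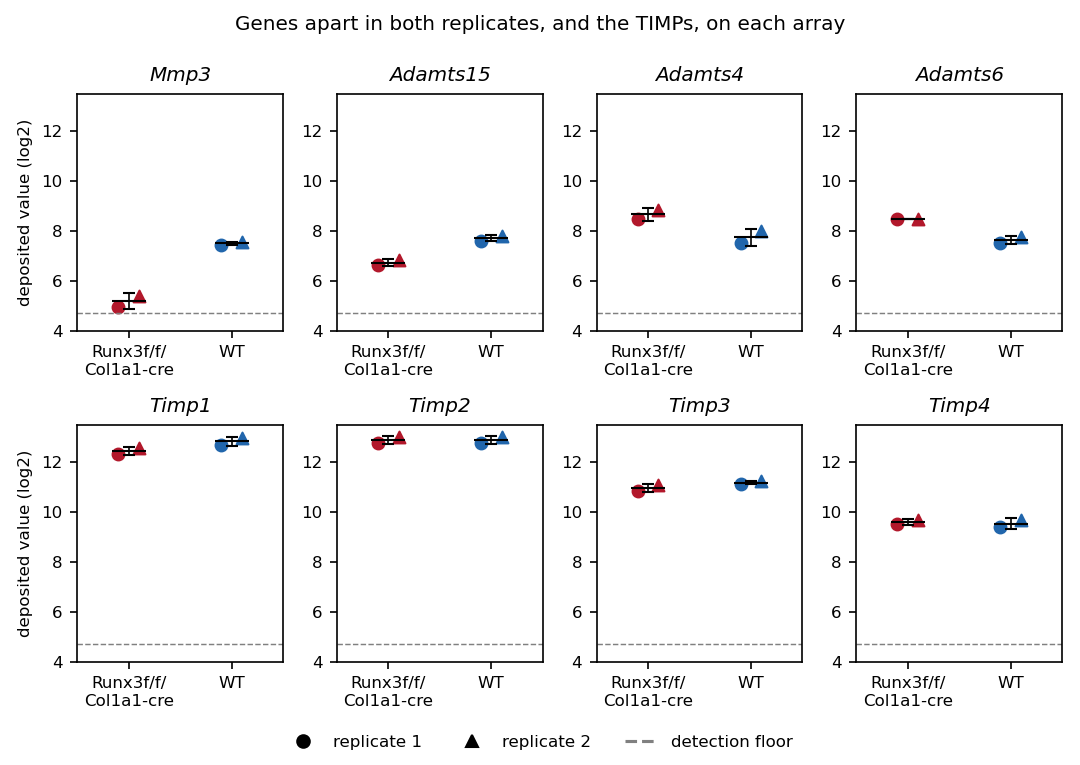
Deposited log2 values of the 4 genes at least 1.5-fold apart in both replicates (top row) and of the 4 TIMP genes (bottom row), with circles for replicate 1, triangles for replicate 2, and black bars for the mean ± SD of 2 arrays. The dashed line is the detection floor of 4.71. The Mmp3 values of the Runx3f/f/Col1a1-cre arrays, 4.95 and 5.41, lie near that line, and the groups of Timp2 and Timp4 overlap.

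The inhibitors were detected on every array, and 0 of the 4 reached 1.5-fold. Timp1, the secreted inhibitor that cytokines induce, read 12.33 and 12.57 on the mutant-labelled arrays and 12.69 and 12.97 on the WT arrays. It was 1.30-fold lower without overlap (difference -0.38, SE 0.18, limma adjusted p = 1), with -0.36 and -0.40 within the replicates. Timp3 is bound to the matrix and also blocks ADAMTS4 and ADAMTS5. It read 10.84 and 11.07 on the mutant-labelled arrays and 11.14 and 11.22 on the WT arrays, with -0.30 and -0.15 within the replicates and no overlap. Timp2, which takes part in the activation of pro-MMP2 by MT1-MMP, read 12.77 and 13.00 on the mutant-labelled arrays and again 12.77 and 13.00 on the WT arrays, and its 95% interval for the difference ran from -0.49 to 0.49. Timp4 read 9.52 and 9.68 on the mutant-labelled arrays against 9.39 and 9.68 on the WT arrays. So Timp1 and Timp3 were the ones lower within both replicates, and the groups of Timp2 and Timp4 overlapped.

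Of 53 other genes of matrix proteolysis (activators, inhibitors, relatives and substrates), 48 were tested, 4 were at least 1.5-fold higher and 3 that much lower within both replicates (1.47% and 1.15% of all tested genes), and 0 passed an adjusted p of 0.05 in limma. Reck, the membrane-anchored MMP inhibitor, read 11.25 and 11.25 on the mutant-labelled arrays and 11.33 and 11.22 on the WT arrays. Furin, a convertase that activates membrane-type MMPs, differed by 0.04 in replicate 1 and 0 in replicate 2. These regulators did not separate.

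Among plasminogen activators, which feed the plasmin that activates MMP zymogens, 1 gene was higher and its relative and an inhibitor were lower. Plat, the tissue-type activator, read 10.45 and 10.71 on the mutant-labelled arrays and 9.78 and 9.96 on the WT arrays, a difference of 0.71 (SE 0.16, limma adjusted p = 0.833). Plau, the urokinase gene, was lower without overlap, with -0.51 and -0.36 within the replicates (limma adjusted p = 1). Serpinb2, an inhibitor of both that macrophages make, read 6.23 and 6.35 on the mutant-labelled arrays and 8.52 and 8.65 on the WT arrays, 4.91-fold lower (difference -2.30, SE 0.13, limma adjusted p = 0.312).

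Thsd4, an ADAMTS-like protein without protease activity that binds fibrillin, read 10.15 and 10.18 on the mutant-labelled arrays and 7.73 and 8.05 on the WT arrays. It was 4.83-fold higher, and 5 of 7 genes of the ADAMTS-like list were higher within both replicates by any amount, where 16.8% of all tested genes were. The convertase gene Pcsk5 was higher by 0.67 and 0.68 within the replicates. Adam33 was higher by 0.86 and 0.79, whereas Adam8, a protease of myeloid cells, was lower, with -1.62 and -1.35. Col2a1, the collagen of cartilage, was the only substrate listed that was at least 1.5-fold apart in both replicates, with -1.01 and -0.88.

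Markers of other cell types differed between the same arrays as these proteases, and their part in the differences was not tested. For each list below, 1.15% of all tested genes were at least 1.5-fold lower within both replicates and 1.47% that much higher. Of 18 macrophage and monocyte markers tested, 14 were at least 1.5-fold lower and none was that much higher within both replicates. Their summed levels on a linear scale were 2905 and 3233 on the mutant-labelled arrays against 9027 and 9639 on the WT arrays, and 0 of the 18 lay below the floor of its replicate on both arrays of either group. Adgre1, which encodes a surface antigen that defines mouse macrophages, read 5.61 and 6.16 on the mutant-labelled arrays against 8.21 and 8.44 on the WT arrays. Of 9 chondrocyte markers 3 were that much lower (Col2a1, Col10a1 and Cnmd), with summed levels of 8653 and 9169 on the mutant-labelled arrays and 12488 and 12616 on the WT arrays. Endothelial markers included 2 of 6 that were higher, Cdh5 and Emcn, with sums of 568 and 587 on the mutant-labelled arrays against 264 and 372 on the WT arrays. Emcn passed the filter through the mutant-labelled arrays alone, at 5.15 and 5.26 against 3.76 and 4.42 on the WT arrays, so its count here follows from the filter. Osteoclast markers summed to 3461 and 3589 on the mutant-labelled arrays and 3448 and 3460 on the WT arrays. Of 7 tested, 1, Atp6v0d2, was at least 1.5-fold lower within both replicates. Such linear sums mostly follow the brightest gene of a list, Ctsk here and Cdh5 among the endothelial markers. Of 6 neutrophil, 4 adipocyte and 7 myoblast markers tested, 0 were 1.5-fold apart in both replicates. Each of the 6 neutrophil markers held exactly equal values in at least 1 replicate, so none could meet this rule. Of the 4 adipocyte markers 3 were lower within both replicates by any amount and 0 were higher, with a median difference of -0.30 over the 4.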

How the data were processed

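Total RNA of 4 cultures was measured on 4 Mouse Gene 2.0 ST arrays. The deposited values are treated as log2. Per the submitters' processing notes, Partek and RMA were used, and neither the log base, the centring nor which arrays were combined is given in the sources used here. Gene symbols came from GEO's platform annotation, which gave 23521 of 41345 rows 1 symbol, 1814 several and 16010 none, and genes were taken from the first kind only. The fit was limma 3.58.1 in R 4.3.3, with lmFit and eBayes on all 4 arrays and no covariate beside group. Tests were two-sided, with Benjamini-Hochberg adjustment over 17841 genes. A run on simulated data had capped noise and no exactly equal values, so it does not measure the error of the fit here. Deviations of same-numbered arrays from their group's mean correlated at r = 0.92 over 17841 genes, but the labels tie no litter or day to a number, so the replicate block is an alternative. Nothing in the labels says how the cultures relate to animals, so p-values measure only the spread between these samples, and 2 arrays per group limit the precision. Members, role groups, lists and tests were chosen with earlier results of these data known. Per-array values are given for members at least 1.5-fold apart in both replicates or at unadjusted p under 0.05, for the member with the highest mean level in each role group, for Mmp2, Mmp9, Mmp13, Mmp14, Mmp16 and the Timp genes. Values of other members, the Mmp13 promoter and the motif counts over the run were added after values were seen. Of other lists, genes 1.5-fold apart in both replicates are named, except that Adgre1 alone is named of the macrophage markers. Runx3, Reck, Plau, Furin, Myod1, Des, Acta1 and Ctsk are named as well. The alternatives are another filter on dim genes, normalization, probe set rule, variance model, replicate block, fold threshold and each array left out.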

Additional observations from a re-analysis of the deposited data

How the results depend on the processing

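With 2 arrays per group and values taken as log2, small differences rest on the pairing of arrays. With the replicate block, 0 members and 0 of all tested genes passed the adjusted threshold, and 9 members an unadjusted p of 0.05 (13.0% of all tested genes). Genes exactly equal in 1 replicate could not pass either threshold in that fit, whatever the size of their difference. Quantile normalization again over all rows with the replicate block called 335 genes, among them 3 members: Mmp3 (-2.36, adjusted p = 0.0399), Adamts4 (0.89, 0.0399) and Adamts15 (-1.03, 0.0425), while Adamts6 missed (0.0529). The same fit normalized over single-symbol genes only, added after the data were seen, called 0 genes. A floor set per replicate number, also added then, moved none of the member counts by over 1.5 times. An intensity trend called 49 genes and 0 members. At 2-fold in place of 1.5-fold, 0 members were higher and 1, Mmp3, was lower within both replicates. With each array left out, the count of members higher at unadjusted p and 1.5-fold ran from 0 to 2 (0 without mutant-labelled replicate 2 and without WT replicate 1), that of lower ones was 2 each time, and the median of tested members ran from -0.26 to 0.15, beside -0.16 to 0.15 for the whole set of tested genes. Differences of Mmp3 then ran from -2.55 to -2.09, Adamts15 from -1.07 to -0.88, Adamts4 from 0.68 to 1.17 and Adamts6 from 0.71 to 0.96. A left-out array shifts each gene by its own gap between replicates, which differs in size and direction. Without mutant-labelled replicate 1, Mmp9 went from -0.046 to 0.15 and Mmp14 from -0.042 to -0.13. The sign turned for members with differences near 0: Adamts1 (-0.043 to 0.027), Adamts14 (-0.14 to 0.011), Mmp14 (-0.17 to 0.086) and Mmp2 (-0.092 to 0.14). It also turned for Mmp9 (-0.24 to 0.15), Timp2 (-0.12 to 0.12) and Timp4 (-0.082 to 0.21). After quantile normalization again, with or without the block, it turned for Adamts1 (0.00026) and Timp2 (0.022). Of 180 values recomputed for 18 named members, 52 had the same log2 difference by construction or because the setting did not touch the gene, and of the other 128, 108 kept their sign and their side of the threshold.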
